A study of Mus musculus with 18 samples.

Results

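Microglia that carried one intact copy of Tbk1 (genotype Tbk1+/-) were compared with wild-type (WT) microglia, with messenger RNA counted by sequencing across all expressed genes. The comparison used 3 Tbk1+/- and 3 WT libraries, 6 of the 18 in the series, chosen by their labelled genotype, and 13447 genes had enough counts to be tested. The cells were primary microglia from forebrains of C57BL/6 pups of postnatal day 2, grown in mixed culture for 7 days, then for 7 more after a change of medium, and shaken off and collected. No treatment is given in the labels. The series title names the suppression of RIPK1 by TBK1, and the comparison asks how microglia with the Tbk1 allele alone differ from WT. 2 further groups of 3 libraries each served to place these cells: Tak1ΔM/+ microglia, which carry one altered allele of Tak1 (gene Map3k7), and Tbk1+/-;Tak1ΔM/+ microglia, called the double heterozygote here. The other 2 genotypes of the series, Tbk1+/-;Ripk1D138N/D138N and Tbk1+/-;Tak1ΔM/+;Ripk1D138N/+, are also labelled with the Tbk1 allele and entered the shared estimate of spread. Their Tbk1 RNA is given under other observations, and whether they carry the labelled alleles was not tested. The labels do not give the sex of the pups, whether pups were pooled, whether the 3 replicates of each genotype are separate animals or cultures, how the Tbk1 allele was made, or which promoter drove the recombination of Tak1. P-values therefore measure the spread between libraries, which may not be that between animals, and n is 3 libraries per genotype throughout.

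TBK1 is a serine/threonine kinase that sits downstream of sensors of foreign and misplaced nucleic acid. Through the adaptors STING, MAVS and TRIF it phosphorylates the transcription factor IRF3, which switches on type I interferon genes. It is also recruited to the tumor necrosis factor (TNF) receptor complex, where it phosphorylates RIPK1 and restrains its kinase, and it phosphorylates receptors of selective autophagy. Loss of one TBK1 copy is a known cause of amyotrophic lateral sclerosis and frontotemporal dementia in people.

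Total counts ran from 15449809 to 21604322 in the Tbk1+/- libraries and from 16275849 to 18134681 in the WT libraries. Expression is given as CPM, counts scaled to a library of 1000000. The label microglia was checked against 10 defining markers. Csf1r, the receptor that keeps microglia alive, had 2101 to 2550.2 CPM in Tbk1+/- and 1963 to 2184 CPM in WT libraries, and Cx3cr1, the fractalkine receptor, had 312 to 552 CPM in Tbk1+/- and 452 to 456 CPM in WT libraries. Tmem119 had 1.45 to 5.25 CPM in Tbk1+/- and 3.01 to 4.49 CPM in WT libraries, Sall1 had at most 1.54 CPM in Tbk1+/- and 4.01 CPM in WT libraries, and Siglech was at 0 in 1 Tbk1+/- and 2 WT libraries. Several genes that define microglia within the brain were thus at or near 0 in both genotypes. The summed level of 14 neuron markers was 0.771 to 6.39 CPM in Tbk1+/- and 6.19 to 21.5 CPM in WT libraries, and that of 14 astrocyte markers was 29.4 to 41.0 CPM in Tbk1+/- and 44.8 to 60.3 CPM in WT libraries. Nefl and Nefm among the neuron markers and Ntsr2 among the astrocyte markers were at 0 in all 6. The astrocyte sum was lower in every Tbk1+/- library and the neuron sums overlapped. Most of the astrocyte sum came from Aldh1l1, which overlapped between the genotypes, and Aldoc. Aldoc had 10.1 to 12.6 CPM in Tbk1+/- and 15.9 to 22.03 CPM in WT libraries. Of 9 tested astrocyte markers 2, Aldoc and Clu, were lower without overlap. Gfap, Aqp4 and S100b had at most 2.53, 0.914 and 0.174 CPM in any of the 6 libraries. The sum is therefore not read as an amount of astrocytes, and the part of astrocytes and neurons in the results was not tested.

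The libraries of a genotype also differed in sex-linked RNA and in mitochondrial RNA. Xist, the RNA of the inactive X chromosome, had 3170, 0 and 445 counts in Tbk1+/- libraries 1, 2 and 3, against 1047, 1847 and 4657 counts in WT libraries 1, 2 and 3. Genes of the Y chromosome had 1292, 3624 and 1896 counts in the Tbk1+/- libraries, against 1829, 910 and 0 in the WT libraries. 4 of the 6 libraries thus held both kinds of RNA, Tbk1+/- library 2 held no Xist, and WT library 3 held no Y-linked counts. These last are called the single-sex libraries. Mitochondrially encoded protein-coding genes took 2.20%, 1.82% and 2.00% of the counts in Tbk1+/- libraries and 1.42%, 1.62% and 0.671% in WT libraries, with no overlap. In a principal component analysis of the 1000 most variable genes the first component, with 27.8% of the variance, set Tbk1+/- libraries 1 and 3 (scores -35.3 and -38.2) apart from Tbk1+/- library 2 (18.96) and the WT libraries (13.4, 15.3 and 25.8). The genotypes were therefore not separated by that component, and Tbk1+/- library 2 lay with WT.

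Tbk1 RNA was lower in all 3 Tbk1+/- libraries. Tbk1 (ENSMUSG00000020115, chromosome 10, 121546455 to 121586787, minus strand, mm10) had 50.5, 65.6 and 57.1 CPM in the Tbk1+/- libraries, against 106, 104 and 149 CPM in the WT libraries. Every Tbk1+/- library was below every WT library, and the Tbk1+/- mean was 48.4% of the WT mean. The log2 fold change was -1.05 (SE 0.25), which did not pass the edgeR quasi-likelihood test after Benjamini-Hochberg adjustment (adjusted p = 0.15). Across the alternatives run the log2 fold change was between -1.15 and -0.72, and the test was passed with DESeq2 (adjusted p = 0.0103), with no filter on low counts (8.91e-07) and without Tbk1+/- replicate 2 (0.0406). The other kinases altered in the series were not called. Map3k7, which encodes TAK1, had 13.2, 12.05 and 14.8 CPM in the Tbk1+/- libraries, against 10.95, 10.4 and 19.2 CPM in the WT libraries, and Ripk1 had 21.5, 13.6 and 19.03 CPM in the Tbk1+/- libraries, against 19.1, 16.97 and 23.8 CPM in the WT libraries. Both groups overlapped for both genes, and the log2 fold changes of -0.02 and -0.15 were smaller than their errors of 0.32 and 0.43.

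7 genes passed the test at an adjusted p under 0.05, which is called here, or 0.0521% of the 13447 tested. 3 were higher (0.0223%) and 4 lower (0.0297%). The 3 that rose were Hist1h1c, a linker histone gene, Myom1, known from the sarcomere of muscle, and Cxcl14, a chemokine. The 4 that fell were Camk1, a calcium-regulated kinase, Il7r, a cytokine receptor chain, Steap3, an iron reductase, and Esyt1, a membrane tether. Without adjustment 1373 genes (10.2%) had a p under 0.05, 657 of them higher (4.89%) and 716 lower (5.32%). The libraries of both genotypes did not overlap for 1690 genes (12.6%), with 845 genes (6.28%) in each direction. The median log2 fold change of all tested genes was 0.0045, and 50.43% of them were above 0.

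**Figure D1:**
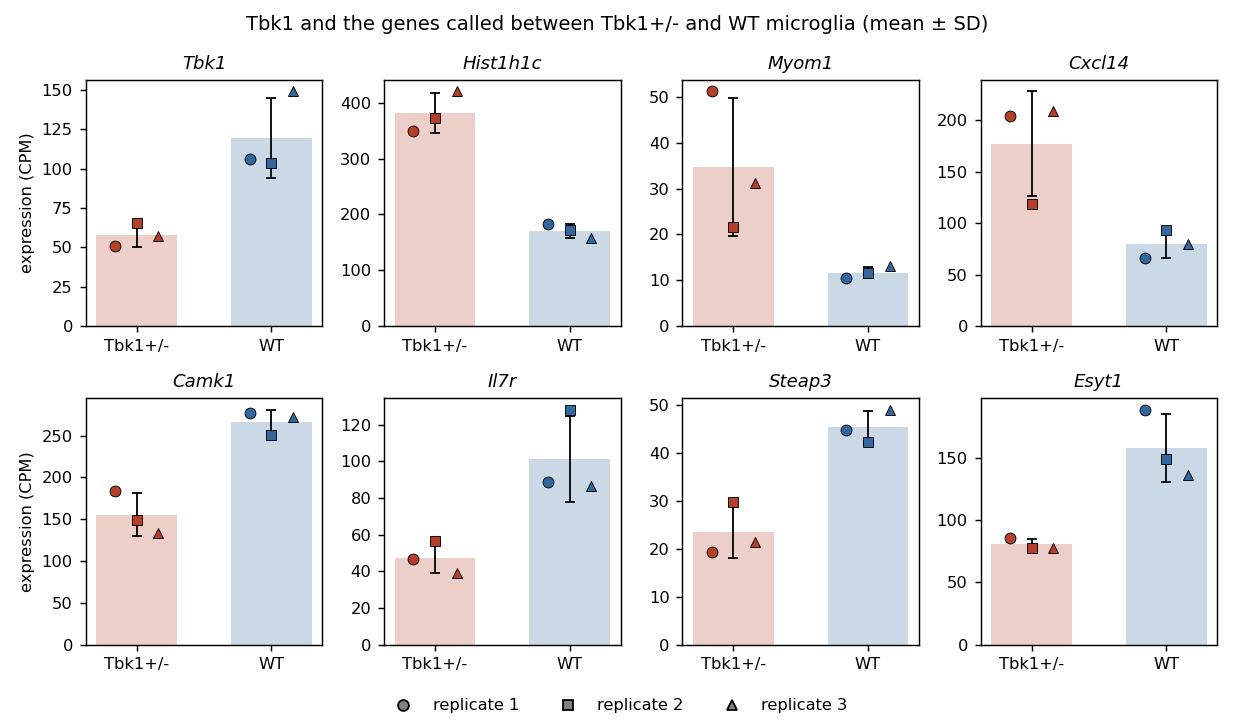
Expression (CPM, linear axes from 0) of Tbk1 and of the 7 called genes in the 3 Tbk1+/- libraries (red, left) and the 3 WT libraries (blue, right), one panel a gene. Bars are means, lines are SDs over 3 libraries, and each symbol is one library. In each panel the 3 libraries of one genotype lay clear of the 3 of the other.

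Hist1h1c (ENSMUSG00000036181, chromosome 13, 23738808 to 23740367, plus strand) encodes linker histone H1.2, which binds the DNA between nucleosomes. It had 350.1, 372 and 420.1 CPM in the Tbk1+/- libraries, against 182, 173 and 157 CPM in the WT libraries. The lowest Tbk1+/- library was well above the highest WT library, and library 2, which lay with WT in the principal component analysis, stood with libraries 1 and 3 here. The log2 fold change was 1.16 (SE 0.14, adjusted p = 0.0022), the smallest p of all tested genes. The call was kept under 16 of 17 alternative ways of processing, among them all 6 that left out one library, and ended in a fit on the 6 libraries alone (adjusted p = 0.231). Of the 50-base stretches of its transcripts, the read length used, 8.54% also occur in Hist1h1d or Hist1h1e.

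The other linker histone genes were at low levels or overlapped between the genotypes. Of 10 linker histone genes 5 were tested, 4 of them with a log2 fold change above 0, and Hist1h1c was the only one called. Hist1h1e had 5.84, 4.74 and 6.76 CPM in the Tbk1+/- libraries, against 3.04, 2.83 and 2.67 CPM in the WT libraries, without overlap (log2 fold change 1.02, SE 0.42, adjusted p = 0.42). 32% of its 50-base stretches also occur in other genes, mostly in the core histone gene Hist1h2be, so its counts are uncertain. H1f0, the variant of resting cells, had 56.6, 37.97 and 42.1 CPM in the Tbk1+/- libraries, against 58.3, 51.8 and 69.1 CPM in the WT libraries, and the groups overlapped (log2 fold change -0.39, SE 0.20, adjusted p = 0.529). Hist1h1b and Hist1h1d had at most 2.72 and 1.72 CPM in any of the 6 libraries. Of 21 core histone and histone variant genes 18 were above 0 and 3 below, with a median of 0.58 (from 0.17, at a mean of at least 5 CPM, to 0.69, without both single-sex libraries, over 17 alternatives), and 0 were called. 6 of the 21 were higher without overlap, against 6.28% of all tested genes, among them H2afz, a histone variant, with 318, 225 and 313 CPM in the Tbk1+/- libraries, against 223, 205 and 202 CPM in the WT libraries, and Hist1h2bc, with 172, 147 and 158 CPM in the Tbk1+/- libraries, against 116, 117 and 85.05 CPM in the WT libraries. Values of both genes were separated by genotype, with log2 fold changes of 0.44 and 0.58. Many core histone genes are near-identical copies, so counts may be split between them. The core histone values of Tbk1+/- library 2 were nearer to WT, as the mean log2 differences of the list from WT of 0.63, 0.14 and 0.89 in Tbk1+/- libraries 1, 2 and 3 show.

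The promoters of Hist1h1c, of its close relative Hist1h1e and of H1f0 are shown because Hist1h1c was the only tested linker histone gene that was called. Each holds 250 bases before and 50 bases after the start site, from RefSeq (GRCm38.p6). Capitals mark the H1 box AAACACA, the CCAAT box and the TATA box TATAAA, searched on both strands, in Hist1h1c and Hist1h1e, and H1f0 held none of them.
Hist1h1c, chr13:23738557-23738856, plus strand: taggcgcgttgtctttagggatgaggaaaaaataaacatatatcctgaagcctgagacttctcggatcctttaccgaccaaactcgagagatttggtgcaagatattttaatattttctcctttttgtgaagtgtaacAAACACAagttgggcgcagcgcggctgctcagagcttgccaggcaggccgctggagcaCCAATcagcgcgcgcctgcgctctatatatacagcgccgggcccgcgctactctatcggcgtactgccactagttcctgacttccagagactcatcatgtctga
Hist1h1e, chr13:23622509-23622808, minus strand: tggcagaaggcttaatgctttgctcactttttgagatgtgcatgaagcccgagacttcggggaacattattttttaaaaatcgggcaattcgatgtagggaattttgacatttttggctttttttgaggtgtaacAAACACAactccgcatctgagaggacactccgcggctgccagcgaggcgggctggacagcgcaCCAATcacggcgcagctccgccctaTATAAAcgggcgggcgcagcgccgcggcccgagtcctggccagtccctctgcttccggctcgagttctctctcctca
H1f0, chr15:79027962-79028261, plus strand: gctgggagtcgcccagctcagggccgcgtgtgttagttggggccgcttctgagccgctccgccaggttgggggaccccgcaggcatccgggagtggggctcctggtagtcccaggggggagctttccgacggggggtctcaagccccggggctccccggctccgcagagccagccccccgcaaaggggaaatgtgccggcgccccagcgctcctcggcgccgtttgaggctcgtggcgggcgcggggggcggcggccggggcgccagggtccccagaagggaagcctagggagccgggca
The H1 box began at position -112 from the start site in Hist1h1c and at -115 in Hist1h1e, and the CCAAT box at -54 and -52. The exact letters TATAAA were found in Hist1h1e and not in this window of Hist1h1c. Hist1h1c held the similar letters tatatata after its CCAAT box, which the exact search does not count. Whether they act as a TATA box was not tested. Among 5 tested linker histone genes 4 held the H1 box, against 4.31% of 9933 promoters of tested genes and 7.18% of all 32851 promoters in the table. The CCAAT box was in 39.15% of the promoters of tested genes and in 37.41% of all, and TATAAA in 7.17% and 13.62%. These are matches of letters in a fixed window and not measured sites of binding.

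Myom1 (ENSMUSG00000024049, chromosome 17, 71002633 to 71126856, plus strand) encodes myomesin 1, which cross-links thick filaments in muscle. It had 51.2, 21.7 and 31.2 CPM in the Tbk1+/- libraries, against 10.4, 11.6 and 12.99 CPM in the WT libraries. All Tbk1+/- libraries were above WT, and they were spread over a wider range than the WT libraries (log2 fold change 1.57, SE 0.24, adjusted p = 0.0229). The call was kept under 10 of 17 alternatives. Myom1 was 1 of only 3 tested among 24 sarcomere genes. The others, Tnni2 and Tnnt1, had log2 fold changes of -0.22 and 0.18 and overlapping groups. No label gives a stranded count, and Myom1 shares 1.51% of its 50-base stretches with Myl12a, which overlaps it and had 337, 278 and 428 CPM in Tbk1+/- and 289, 291 and 236 CPM in WT libraries. Without strand, reads of overlapping genes cannot be told apart.

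Cxcl14 (ENSMUSG00000021508, chromosome 13, 56288643 to 56296551, minus strand), a chemokine that many tissues make without stimulation, had 204, 119 and 209 CPM in the Tbk1+/- libraries, against 66.5, 93.7 and 79.3 CPM in the WT libraries. The groups did not overlap, though Tbk1+/- library 2 was closer to WT than to Tbk1+/- libraries 1 and 3 (log2 fold change 1.15, SE 0.20, adjusted p = 0.0465). It stayed called under 8 of 17 alternatives. Of 23 tested chemokine genes Cxcl14 was the only one called, 13 were above 0 and 10 below, and the median was 0.36 (from -0.11, at a mean of at least 5 CPM, to 0.48, without WT replicate 3, over 17 alternatives). Cxcl10, an interferon-induced attractant of T cells, had 1.35, 2.06 and 1.06 CPM in the Tbk1+/- libraries, against 3.74, 4.42 and 2.84 CPM in the WT libraries. It was lower in each Tbk1+/- library and was not called (log2 fold change -1.29, SE 0.44, adjusted p = 0.338). Ccl4, an attractant of myeloid cells, had 38.1, 173 and 36.7 CPM in the Tbk1+/- libraries, against 134, 147 and 140.4 CPM in the WT libraries, so that Tbk1+/- library 2 was above every WT library and libraries 1 and 3 were below.

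Camk1 (ENSMUSG00000030272, chromosome 6, 113334124 to 113343984, minus strand) encodes a kinase that calmodulin activates when calcium rises. It had 184, 149 and 134 CPM in the Tbk1+/- libraries, against 277, 250.6 and 273 CPM in the WT libraries. Every Tbk1+/- library was below every WT library (log2 fold change -0.78, SE 0.12, adjusted p = 0.0214). The call was kept under 12 of 17 alternatives. It was the only gene called of 15 calcium and calmodulin-dependent kinase genes, with 5 above 0, 10 below and a median of -0.32 (from -0.35, in only the 6 libraries, to -0.15, without both single-sex libraries, over 17 alternatives). 5 of the 15 were lower without overlap, against 6.28% of all tested genes. Camk2d, the delta chain of a related kinase, had 52.4, 73.3 and 36.5 CPM in the Tbk1+/- libraries, against 97.6, 105 and 98.7 CPM in the WT libraries. Its groups did not overlap (log2 fold change -0.89, SE 0.19, adjusted p = 0.117), and it was not called. Dapk1, a calmodulin-regulated kinase linked to cell death, had 36.02, 29.2 and 38.3 CPM in the Tbk1+/- libraries, against 59.8, 39.4 and 45.9 CPM in the WT libraries. The lowest WT library was close above the highest Tbk1+/- library.

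Il7r (ENSMUSG00000003882, chromosome 15, 9505788 to 9530176, minus strand) encodes the alpha chain of the receptor for interleukin 7, which it shares with the receptor for TSLP. It had 46.6, 56.5 and 39.2 CPM in the Tbk1+/- libraries, against 88.9, 128 and 86.6 CPM in the WT libraries. The groups did not overlap (log2 fold change -1.09, SE 0.18, adjusted p = 0.0441). It stayed called under 11 of 17 alternatives. Of 25 cytokine receptor genes it was the only one called, with 7 above 0 and 18 below. Il10rb, a chain of the interleukin 10 receptor, had 137, 168 and 109 CPM in the Tbk1+/- libraries, against 189, 170.4 and 178 CPM in the WT libraries, without overlap (log2 fold change -0.38, SE 0.13, adjusted p = 0.338). Csf2rb, the common chain for GM-CSF and interleukin 3, had 582, 308 and 666 CPM in the Tbk1+/- libraries, against 368, 337 and 243 CPM in the WT libraries. Here Tbk1+/- libraries 1 and 3 were above WT and library 2 was within the WT range.

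Steap3 (ENSMUSG00000026389, chromosome 1, 120190757 to 120272705, minus strand), the ferric reductase of endosomes that take up transferrin, had 19.4, 29.7 and 21.5 CPM in the Tbk1+/- libraries, against 44.8, 42.2 and 48.96 CPM in the WT libraries. The highest Tbk1+/- library was below the lowest WT library (log2 fold change -0.95, SE 0.16, adjusted p = 0.0465). The call was kept under 9 of 17 alternatives. It was the only gene called of 16 iron genes, whose median was -0.08 (from -0.21, without Tbk1+/- replicate 1, to -0.04, without both single-sex libraries, over 17 alternatives). The transferrin receptor gene Tfrc had 52.6, 151 and 75.5 CPM in the Tbk1+/- libraries, against 107, 153 and 146 CPM in the WT libraries, and the ferritin heavy chain gene Fth1 had 21226, 11974 and 24228 CPM in the Tbk1+/- libraries, against 16486, 16833 and 8142 CPM in the WT libraries. For both genes the genotypes overlapped, and Tbk1+/- library 2 stood apart from libraries 1 and 3.

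Esyt1 (ENSMUSG00000025366, chromosome 10, 128509965 to 128525871, minus strand) encodes an extended synaptotagmin, which holds the endoplasmic reticulum to the plasma membrane when calcium rises. It had 85.8, 77.9 and 77.5 CPM in the Tbk1+/- libraries, against 189, 149 and 136 CPM in the WT libraries. The 3 Tbk1+/- values were close together and all below WT (log2 fold change -0.97, SE 0.17, adjusted p = 0.0487). It stayed called under 8 of 17 alternatives. Of 17 contact-site genes 11 were below 0, 4 of them without overlap, against 6.28% of all tested genes, and Esyt1 alone was called. Osbpl8, a lipid exchange protein of the same contacts, had 312, 295 and 219.6 CPM in the Tbk1+/- libraries, against 357, 390.2 and 473 CPM in the WT libraries, and Vapb, an anchor of the endoplasmic reticulum, had 6.12, 8.39 and 4.84 CPM in the Tbk1+/- libraries, against 16.1, 10.9 and 13.6 CPM in the WT libraries. Neither gene overlapped between genotypes and neither was called (adjusted p = 0.233 and 0.225).

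The remaining genes at the top of the ranking were not called. Among genes of at least 5 CPM without overlap, the 12 higher ones with the smallest p were the 3 above and Cytip, C1qa, Cd86, Pls3, Ctla2b, Ikbkg, Ckap2, Slc7a11 and Usmg5. The lack of overlap was a condition of this choice, for these and for the 12 lower genes, and is not a result about them. C1qa, a chain of complement C1q, had 1418, 1473 and 1775 CPM in the Tbk1+/- libraries, against 1009.6, 929 and 1120.3 CPM in the WT libraries. All 3 Tbk1+/- libraries were high (log2 fold change 0.61, SE 0.12, adjusted p = 0.0838). Ikbkg encodes NEMO, the regulatory subunit of the IkB kinase complex, and had 111, 90.4 and 106 CPM in the Tbk1+/- libraries, against 71.7, 68.6 and 57.3 CPM in the WT libraries, again without overlap (log2 fold change 0.64, SE 0.15, adjusted p = 0.15). Its neighbour G6pdx, with which it shares at most 4.38% of its 50-base stretches, had 278, 175 and 326 CPM in Tbk1+/- and 249, 232 and 202 CPM in WT libraries. Usmg5, a small subunit of the ATP synthase, had 55.1, 43.7 and 46.7 CPM in the Tbk1+/- libraries, against 30.5, 31.5 and 30.6 CPM in the WT libraries, with all Tbk1+/- libraries above WT.

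In the others library 2 was the lowest of the Tbk1+/- libraries and the nearest to WT, by differing amounts. Cd86, a ligand that stimulates T cells, had 207, 75.6 and 180.0 CPM in the Tbk1+/- libraries, against 70.8, 60.3 and 58.999 CPM in the WT libraries. Pls3, the actin bundler plastin 3, had 249.8, 99.9 and 237 CPM in the Tbk1+/- libraries, against 84.8, 95.9 and 84.8 CPM in the WT libraries. Cytip, a regulator of leukocyte adhesion, had 222, 98.7 and 162 CPM in the Tbk1+/- libraries, against 46.5, 46.02 and 74.7 CPM in the WT libraries. In all 3 genes the Tbk1+/- mean was set largely by libraries 1 and 3. Slc7a11, the cystine transporter that feeds glutathione synthesis, had 33.4, 11.9 and 54.2 CPM in the Tbk1+/- libraries, against 6.96, 8.43 and 1.74 CPM in the WT libraries, and Ckap2, a spindle protein, had 16.8, 11.4 and 23.3 CPM in the Tbk1+/- libraries, against 4.62, 5.72 and 8.24 CPM in the WT libraries. Ctla2b had 255, 108 and 302 CPM in Tbk1+/- and 83.2, 98.2 and 85.1 CPM in WT libraries, but 69.01% of its 50-base stretches also occur in other genes, so its level is uncertain.

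The 12 lower ones were the 4 called genes and Dock10, H2-M3, Eng, Trim47, Myof, Tbl1x, Myo1g and Prkch. Dock10, a guanine nucleotide exchange factor, had 12.6, 20.1 and 16.8 CPM in the Tbk1+/- libraries, against 31.7, 32.7 and 44.1 CPM in the WT libraries (log2 fold change -1.13, SE 0.21, adjusted p = 0.0619). H2-M3, a nonclassical class I molecule that presents N-formylated peptides, had 21.2, 29.005 and 16.6 CPM in the Tbk1+/- libraries, against 52.7, 35.4 and 50.8 CPM in the WT libraries (log2 fold change -1.06, SE 0.20, adjusted p = 0.0619). Eng, the TGF-beta co-receptor endoglin, had 1.83, 1.54 and 2.25 CPM in the Tbk1+/- libraries, against 11.5, 5.36 and 10.2 CPM in the WT libraries (log2 fold change -2.26, SE 0.44, adjusted p = 0.081). In these 3 genes, as in all 12 by the rule that chose them, the highest Tbk1+/- library was below the lowest WT library. Myo1g, a myosin of blood cells that holds membrane to actin, had 45.9, 51.5 and 48.7 CPM in the Tbk1+/- libraries, against 74.5, 79.5 and 70.6 CPM in the WT libraries, and Tbl1x, a part of the NCoR corepressor complex, had 39.9, 50.6 and 48.02 CPM in the Tbk1+/- libraries, against 68.3, 66.2 and 87.1 CPM in the WT libraries. The 3 Tbk1+/- values of both genes were close together. Prkch, a protein kinase C, had 56.4, 40.3 and 23.01 CPM in the Tbk1+/- libraries, against 82.3, 85.4 and 87.1 CPM in the WT libraries. Trim47, a ubiquitin ligase, had 38.1, 27.9 and 24.2 CPM in the Tbk1+/- libraries, against 55.7, 56.5 and 63.6 CPM in the WT libraries. Myof, a membrane repair protein, had 97.1, 89.3 and 71.5 CPM in the Tbk1+/- libraries, against 137, 165 and 119 CPM in the WT libraries. The adjusted p-values of the 8 genes ran from 0.0619 to 0.116.

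**Figure D2:**
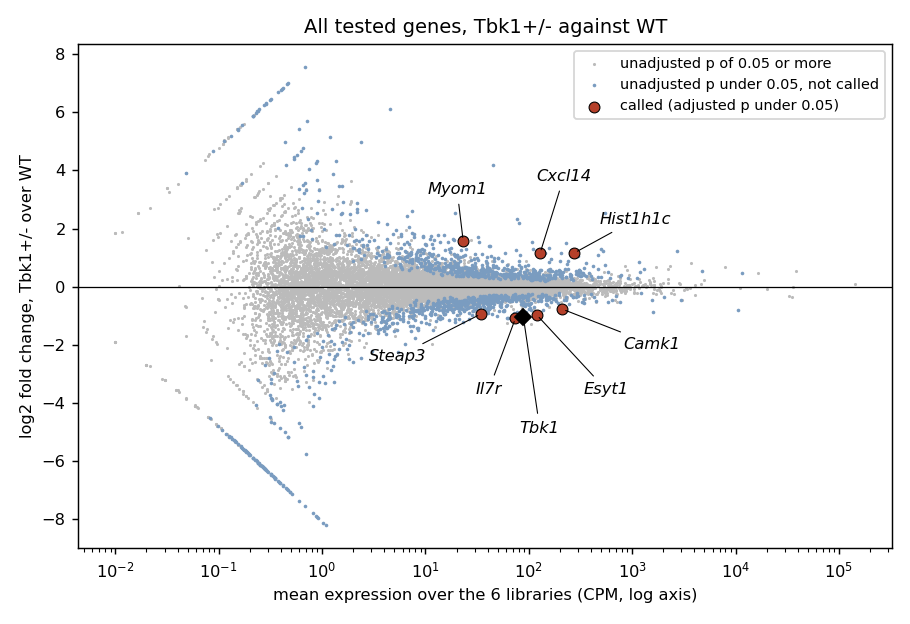
Log2 fold change of Tbk1+/- over WT against mean expression over the 6 libraries (CPM, log axis) for the 13447 tested genes. Red points are the 7 called genes, blue points the other genes at an unadjusted p under 0.05, grey points the rest, and the black diamond is Tbk1. The called genes lay between -1.09 and 1.57, and 1639 genes reached a log2 fold change of 1 or more in either direction.

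No gene of the TBK1 group was called. Of 20 tested genes for TBK1, its adaptors and the sensors upstream of it, 5 had a log2 fold change above 0 and 15 below, with a median of -0.14 (from -0.28, without both single-sex libraries, to -0.04, without Tbk1+/- replicate 1, over 17 alternatives). 3 of the 20, Tbk1 itself, Tbkbp1 and Mavs, were lower without overlap and 1 was higher, against 6.28% of all tested genes in each direction. Ikbke, the closest relative of TBK1, had 34.4, 43.7 and 47.2 CPM in the Tbk1+/- libraries, against 51.9, 42.2 and 72.6 CPM in the WT libraries. Tank, an adaptor that binds TBK1, had 54.8, 51.8 and 48.5 CPM in the Tbk1+/- libraries, against 36.5, 43.95 and 46.5 CPM in the WT libraries, higher without overlap (log2 fold change 0.29, adjusted p = 0.545). Tbkbp1, the adaptor SINTBAD, had 4.87, 1.94 and 3.05 CPM in the Tbk1+/- libraries, against 5.00, 6.42 and 5.34 CPM in the WT libraries, lower without overlap (log2 fold change -0.76, adjusted p = 0.48). The groups overlapped for the sensor of double-stranded RNA Ifih1, with 24.5, 56.4 and 34.6 CPM in Tbk1+/- and 41.3, 51.8 and 51.5 CPM in WT libraries.

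The TNF receptor and RIPK1 pathway showed no called gene among 30 tested, 10 above 0 and 20 below, with a median of -0.08 (from -0.16, without Tbk1+/- replicate 3, to 0.003, with the mitochondrial share as a covariate, over 17 alternatives). 4 members were lower without overlap and 1, Ikbkg, was higher, against 6.28% of all tested genes in each direction. Chuk, a catalytic subunit of the IkB kinase complex, had 13.4, 14.3 and 11.1 CPM in the Tbk1+/- libraries, against 15.7, 22.5 and 30.4 CPM in the WT libraries, and Ikbkb, the other one, had 54.1, 71.9 and 69.4 CPM in the Tbk1+/- libraries, against 74.8, 76.3 and 83.7 CPM in the WT libraries. The RNAs of both catalytic subunits were thus lower, and that of the regulatory subunit higher, in each Tbk1+/- library, though none was called (adjusted p = 0.42, 0.676 and 0.15). Cyld, the deubiquitinase that trims chains on RIPK1, had 54.5, 44.1 and 46.8 CPM in the Tbk1+/- libraries, against 67.2, 56.9 and 69.96 CPM in the WT libraries, and Traf5, a TNF receptor adaptor, had 3.57, 4.97 and 2.32 CPM in the Tbk1+/- libraries, against 7.34, 6.89 and 7.48 CPM in the WT libraries. Both were lower without overlap (adjusted p = 0.356 and 0.404). The list median changed sign among the alternatives, so no direction is given for the pathway.

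Of 20 NF-kB subunits, inhibitors and feedback targets 8 were above 0 and 12 below, and 0 were called. Icam1, an adhesion molecule induced by NF-kB, had 28.7, 27.7 and 34.1 CPM in the Tbk1+/- libraries, against 56.9, 42.7 and 50.4 CPM in the WT libraries, and Tnfaip2 had 24.6, 26.04 and 21.2 CPM in the Tbk1+/- libraries, against 47.9, 31.99 and 30.3 CPM in the WT libraries. Both were lower without overlap (adjusted p = 0.351 and 0.362). Tnf itself had 6.41, 17.8 and 3.91 CPM in the Tbk1+/- libraries, against 13.99, 12.3 and 16.3 CPM in the WT libraries. Tbk1+/- library 2 held the highest value of the 6 and libraries 1 and 3 the lowest. Of 21 genes of intrinsic apoptosis 12 were above 0 and 9 below, with a median of 0.03 (from -0.05, without Tbk1+/- replicate 1, to 0.09, without Tbk1+/- replicate 2, over 17 alternatives) and 0 called. Pmaip1, which encodes the BH3-only protein NOXA, had 73.2, 55.95 and 36.9 CPM in the Tbk1+/- libraries, against 35.5, 28.9 and 40.1 CPM in the WT libraries, and Bbc3, which encodes PUMA, had 3.86, 1.88 and 1.33 CPM in the Tbk1+/- libraries, against 3.36, 3.36 and 4.47 CPM in the WT libraries. Both overlapped between the genotypes.

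Type I interferon response genes were not called, and their mean level was below WT in 2 of the 3 Tbk1+/- libraries. Of 50 tested genes 38 had a log2 fold change below 0 and 12 above, with a median of -0.23. 7 were lower and 1 higher at an unadjusted p under 0.05, as were 5.32% and 4.89% of all tested genes. The mean log2 difference from WT over the list was -0.55, 0.18 and -0.65 in Tbk1+/- libraries 1, 2 and 3, against -0.08, -0.04 and 0.12 in WT libraries 1, 2 and 3. Library 2 was therefore above all WT libraries and libraries 1 and 3 below them. Without Tbk1+/- replicate 2 the median was -0.52, and without replicate 1 or 3 it was -0.09 or -0.06. Of 20 genes for JAK kinases, STAT factors and their SOCS inhibitors 5 were above 0 and 15 below, and 0 were called. Their median was -0.23 (from -0.28, without WT replicate 2, to -0.12, with the mitochondrial share as a covariate, over the alternatives). The mean log2 difference from WT was -0.105, -0.359 and -0.158 in Tbk1+/- libraries 1, 2 and 3, against -0.053, -0.113 and 0.166 in the WT libraries. Unlike in the interferon list, library 2 was the lowest here, and library 1 was within the WT range. Socs3, a feedback inhibitor of STAT3 signalling, had 2.80, 1.71 and 2.25 CPM in the Tbk1+/- libraries, against 5.70, 6.95 and 5.80 CPM in the WT libraries.

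Isg15, a ubiquitin-like protein that interferon induces strongly, had 1.88, 2.63 and 3.12 CPM in the Tbk1+/- libraries, against 6.01, 4.12 and 5.45 CPM in the WT libraries. It was lower in each Tbk1+/- library, library 2 included (log2 fold change -1.04, SE 0.25, adjusted p = 0.15). Irf9, the DNA-binding part of the interferon-activated complex ISGF3, had 39.6, 44.5 and 45.6 CPM in the Tbk1+/- libraries, against 54.3, 55.3 and 49.8 CPM in the WT libraries, and Dtx3l, a ubiquitin ligase, had 27.97, 32.3 and 24.7 CPM in the Tbk1+/- libraries, against 40.4, 39.8 and 50.4 CPM in the WT libraries. Both were lower without overlap (adjusted p = 0.402 and 0.331). Irf7, the amplifier of interferon genes, had 17.9, 25.4 and 10.8 CPM in the Tbk1+/- libraries, against 18.3, 17.1 and 30.4 CPM in the WT libraries, and Usp18, the remover of ISG15, had 3.23, 7.88 and 4.31 CPM in the Tbk1+/- libraries, against 6.20, 4.42 and 4.82 CPM in the WT libraries. The groups overlapped for both, with library 2 as the highest Tbk1+/- library.

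Of the 50 tested interferon response genes 4 were lower without overlap, a share near the 6.28% of all tested genes. The promoter of Isg15 is shown as 1 of the 4. Capitals mark the interferon-stimulated response element, written as GAAA, any 2 bases and GAAA, searched on both strands (RefSeq, GRCm38.p6, 250 bases before and 50 after the start site).
Isg15, chr4:156200769-156201068, minus strand: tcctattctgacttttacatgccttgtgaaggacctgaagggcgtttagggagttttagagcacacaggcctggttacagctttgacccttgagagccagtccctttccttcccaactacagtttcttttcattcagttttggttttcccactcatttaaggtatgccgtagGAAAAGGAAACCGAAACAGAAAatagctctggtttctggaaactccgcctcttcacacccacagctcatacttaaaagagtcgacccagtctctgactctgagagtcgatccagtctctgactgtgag
The window held 3 matches that overlap each other. Of 35 interferon response genes with a listed promoter, 19 (54.29%) held the motif, against 3.29% of 9933 promoters of tested genes and 3.44% of all 32851. Of the 7 called genes Cxcl14 alone held it.

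The mean level of mitosis genes was above WT in 2 of the 3 Tbk1+/- libraries. All 28 tested genes had a log2 fold change above 0, with a median of 0.96, 9 were higher at an unadjusted p under 0.05 (4.89% of all tested genes), and 0 were called. The mean log2 difference from WT was 1.35, -0.40 and 1.34 in Tbk1+/- libraries 1, 2 and 3, against 0.02, 0.31 and -0.33 in WT libraries 1, 2 and 3. Library 2 was below all WT libraries and libraries 1 and 3 above them. The median was 1.29 without Tbk1+/- replicate 2, and 0.73 and 0.64 without replicates 1 and 3. Mki67, the marker of cycling cells, had 70.9, 15.4 and 61.1 CPM in the Tbk1+/- libraries, against 19.8, 22.6 and 7.89 CPM in the WT libraries. Top2a, which untangles chromosomes, had 146, 31.2 and 143 CPM in the Tbk1+/- libraries, against 39.8, 57.5 and 36.9 CPM in the WT libraries. Both showed the same split, with Tbk1+/- library 2 below or within WT. Cenpa, the histone of centromeres, was an exception with 82.1, 38.7 and 79.3 CPM in the Tbk1+/- libraries, against 35.8, 35.4 and 31.04 CPM in the WT libraries, since library 2 was just above the highest WT library (log2 fold change 0.97, SE 0.24, adjusted p = 0.167). Ube2c, which marks mitotic proteins for destruction, had 29.9, 11.8 and 41.3 CPM in the Tbk1+/- libraries, against 16.1, 14.1 and 9.11 CPM in the WT libraries.

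Genes of DNA replication had both signs, since 16 of 28 were above 0 and 12 below, with a median of 0.02 (from -0.26, with the mitochondrial share as a covariate, to 0.12, without WT replicate 2, over 17 alternatives) and 0 called. Tk1, the thymidine kinase of S phase, had 15.3, 10.5 and 21.02 CPM in the Tbk1+/- libraries, against 7.60, 7.01 and 8.18 CPM in the WT libraries, and Rrm1, a subunit of ribonucleotide reductase, had 105, 76.5 and 123 CPM in the Tbk1+/- libraries, against 52.5, 64.5 and 65.6 CPM in the WT libraries. Both were higher without overlap, library 2 included (adjusted p = 0.253 and 0.356).

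The promoter of Cenpa is shown as the mitosis gene with the smallest p. Capitals mark the letters of the CCAAT box, here both on the reverse strand as ATTGG.
Cenpa, chr5:30666636-30666935, plus strand: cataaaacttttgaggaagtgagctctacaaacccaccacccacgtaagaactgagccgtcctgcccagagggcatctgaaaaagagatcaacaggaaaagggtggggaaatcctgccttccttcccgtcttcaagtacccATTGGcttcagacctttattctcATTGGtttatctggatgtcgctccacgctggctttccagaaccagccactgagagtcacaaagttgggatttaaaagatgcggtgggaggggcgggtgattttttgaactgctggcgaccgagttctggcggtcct
It held 2 matches. Of 23 mitosis genes with a listed promoter, 19 (82.61%) held CCAAT, against 39.15% of the promoters of tested genes.

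The split between Tbk1+/- libraries ran through genes of macrophage subtypes as well. Lyve1, a hyaluronan receptor that marks macrophages of the brain's borders, had 98.2, 0.571 and 156 CPM in the Tbk1+/- libraries, against 4.75, 8.78 and 0.522 CPM in the WT libraries. Libraries 1 and 3 were far above WT and library 2 was next to the lowest WT library. F13a1, a coagulation factor chain of such macrophages, had 472, 81.5 and 458 CPM in the Tbk1+/- libraries, against 72.8, 88.8 and 193 CPM in the WT libraries, and Pf4, a chemokine, had 349, 134 and 365 CPM in the Tbk1+/- libraries, against 115, 109 and 155 CPM in the WT libraries. Clec4n, the lectin Dectin-2, had 440.3, 158 and 330.1 CPM in the Tbk1+/- libraries, against 159, 169 and 181 CPM in the WT libraries. For F13a1 and Pf4 library 2 was within the WT range. For Clec4n library 2 was next to the lowest WT library (158.4 against 159.1 CPM). Libraries 1 and 3 were above WT in these genes. Mrc1, the mannose receptor, had 245, 366 and 363 CPM in the Tbk1+/- libraries, against 249.5, 236 and 299.5 CPM in the WT libraries, and its lowest value was in Tbk1+/- library 1. Ms4a7 had 354, 889 and 250.5 CPM in the Tbk1+/- libraries, against 542, 476 and 640.1 CPM in the WT libraries, so library 2 was above WT and libraries 1 and 3 below. The summed level of the 14 markers of border macrophages and monocytes was 1634 to 1969.7 CPM in Tbk1+/- and 1094 to 1475.5 CPM in WT libraries. Of 11 tested markers 8 were above 0, 0 were called, and the monocyte gene Ly6c2 was at 0 in all Tbk1+/- libraries. In bulk RNA, more cells of a type and more RNA per cell cannot be told apart, and the part of such macrophages in the other results was not tested.

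**Figure D3:**
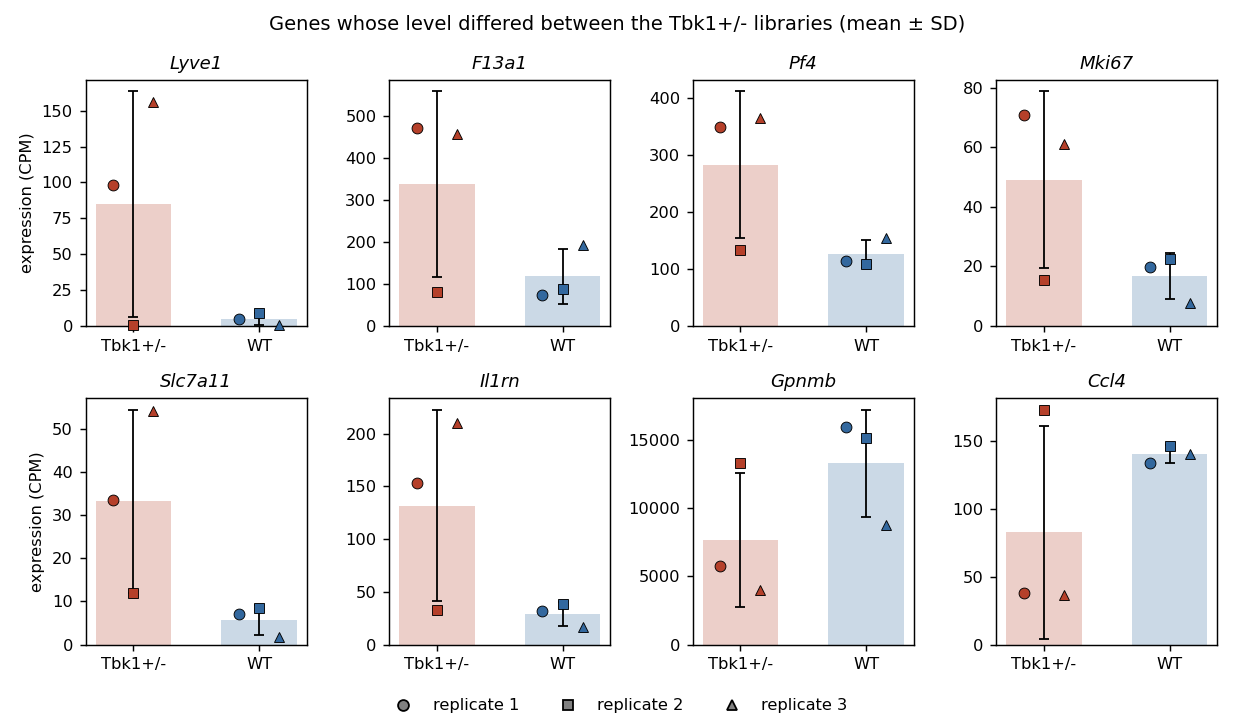
Expression (CPM, linear axes from 0) of 8 genes in the 3 Tbk1+/- libraries (red, left) and the 3 WT libraries (blue, right); bars are means, lines are SDs over 3 libraries, symbols are libraries. Tbk1+/- library 2 (square) lay at or near the WT libraries while libraries 1 and 3 were apart, for example at 98.2 and 156 CPM of Lyve1 against 0.571 CPM in library 2.

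The mean log2 difference of the inflammatory cytokine genes from WT was 0.22, 0.09 and 0.11 in Tbk1+/- libraries 1, 2 and 3, against 0.25, 0.11 and -0.35 in WT libraries 1, 2 and 3, and the groups overlapped. Single genes of inflammation were split by library. Il1rn, the natural antagonist of interleukin 1, had 153, 32.3 and 209.9 CPM in the Tbk1+/- libraries, against 31.6, 38.9 and 16.3 CPM in the WT libraries (log2 fold change 2.19, SE 0.56, adjusted p = 0.201). Ptgs2, the inducible cyclooxygenase, had 13.1, 2.74 and 19.6 CPM in the Tbk1+/- libraries, against 4.75, 5.42 and 0.754 CPM in the WT libraries. Library 2 lay within the WT range for both genes, and libraries 1 and 3 above it. Osm, the cytokine oncostatin M, was higher in each Tbk1+/- library, with 32.6, 17.2 and 23.7 CPM in the Tbk1+/- libraries, against 14.2, 16.6 and 12.4 CPM in the WT libraries, and was not called (adjusted p = 0.372). Of 13 tested inflammatory cytokine genes 5 were above 0 and 8 below. Arg2, an arginase, had 62.4, 13.6 and 48.8 CPM in the Tbk1+/- libraries, against 22.9, 24.3 and 16.1 CPM in the WT libraries, and Odc1, the ornithine decarboxylase that starts polyamine synthesis, had 9.98, 5.48 and 11.3 CPM in the Tbk1+/- libraries, against 3.17, 5.42 and 3.13 CPM in the WT libraries. In library 2 Arg2 was below the WT range and Odc1 just above it. Srm, the spermidine synthase that follows ornithine decarboxylase, had 9.45, 10.7 and 9.68 CPM in the Tbk1+/- libraries, against 17.3, 17.97 and 16.6 CPM in the WT libraries, lower without overlap and library 2 included (adjusted p = 0.254).

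Of 26 genes of cholesterol and fatty acid synthesis 21 were above 0 and 5 below, with a median of 0.35 (from 0.06, without Tbk1+/- replicate 1, to 0.62, without both single-sex libraries, over 17 alternatives) and 0 called. The mean log2 difference from WT was 0.60, -0.64 and 0.44 in Tbk1+/- libraries 1, 2 and 3, so that library 2 was below WT and the others above. Hmgcs1, the synthase ahead of the rate-limiting step, had 409, 137 and 267 CPM in the Tbk1+/- libraries, against 196, 158 and 212 CPM in the WT libraries, and Sqle, squalene epoxidase, had 160.2, 65.4 and 104 CPM in the Tbk1+/- libraries, against 69.01, 75.8 and 96.01 CPM in the WT libraries. Dhcr7, a late enzyme of the pathway, was lower in each Tbk1+/- library, with 52.8, 46.5 and 42.4 CPM in the Tbk1+/- libraries, against 62.4, 63.5 and 57.1 CPM in the WT libraries (adjusted p = 0.372).

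Genes of the antioxidant response were above 0 for 15 of 20, with a median of 0.19 (from 0.11, without Tbk1+/- replicate 3, to 0.40, without Tbk1+/- replicate 2, over 17 alternatives), 3 higher and 1 lower without overlap (6.28% of all tested genes in each direction), and 0 called. Gclc, the rate-limiting enzyme of glutathione synthesis, had 18.2, 7.02 and 18.2 CPM in the Tbk1+/- libraries, against 5.63, 3.54 and 6.44 CPM in the WT libraries, and Prdx1, a peroxiredoxin, had 3229.9, 2381 and 2343 CPM in the Tbk1+/- libraries, against 1868, 2052 and 1316 CPM in the WT libraries. Both were higher in each Tbk1+/- library (adjusted p = 0.372 and 0.495). Srxn1, which repairs peroxiredoxins, had 59.8, 27.9 and 71.2 CPM in the Tbk1+/- libraries, against 31.3, 30.3 and 17.3 CPM in the WT libraries, with library 2 within WT. Of 24 genes of the integrated and endoplasmic reticulum stress responses 13 were above 0, and 5 were higher without overlap, against 6.28% of all genes. They included genes of serine and asparagine synthesis. Phgdh had 11.7, 3.88 and 22.4 CPM in the Tbk1+/- libraries, against 2.15, 3.18 and 0.812 CPM in the WT libraries. Psat1 had 56.8, 42.9 and 102 CPM in the Tbk1+/- libraries, against 32.8, 32.9 and 34.9 CPM in the WT libraries. Asns had 49.9, 22.2 and 76.3 CPM in the Tbk1+/- libraries, against 22.03, 19.6 and 4.35 CPM in the WT libraries. In all 3 genes Tbk1+/- library 2 was the lowest Tbk1+/- library and still above WT. Of 24 genes of glycolysis and hypoxia 19 were above 0, 0 were without overlap and 0 were called.

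Genes of oxidative phosphorylation had mostly positive log2 fold changes and none was called. Of 28 nuclear-encoded genes 25 were above 0, with a median of 0.17 (from 0.07, with the mitochondrial share as a covariate, to 0.20, without WT replicate 2, over 17 alternatives), and 7 were higher without overlap, against 6.28% of all genes. The mean log2 difference from WT was 0.14, 0.09 and 0.23 in Tbk1+/- libraries 1, 2 and 3, against 0.07, 0.08 and -0.15 in WT libraries 1, 2 and 3. Cox6c, a subunit of complex IV, had 177, 139.5 and 181 CPM in the Tbk1+/- libraries, against 134, 127 and 116 CPM in the WT libraries. The genotypes did not overlap (adjusted p = 0.402). All 13 mitochondrially encoded genes were above 0, with a median of 0.70 (from 0.006, with the mitochondrial share as a covariate, to 0.96, without WT replicate 2, over 17 alternatives), and 7 did not overlap, against 6.28% of all tested genes. That share is made up of the counts of these 13 genes. A median near 0 with it as a covariate was therefore fixed in advance, and nothing is read from the 0.006. mt-Nd5 had 2126, 2097 and 2033 CPM in the Tbk1+/- libraries, against 1483, 1846 and 624 CPM in the WT libraries, and mt-Cytb, the cytochrome of complex III, had 5319, 4439.9 and 4523 CPM in the Tbk1+/- libraries, against 3189, 3663 and 1355 CPM in the WT libraries. WT library 3 was low in both, and without it the median of the 13 genes was 0.36. Ribosomal protein genes were above 0 for 29 of 30, with a median of 0.14 (from 0.04, without Tbk1+/- replicate 3, to 0.17, without WT replicate 1, over 17 alternatives), and 2, Rps15a and Rpl30, did not overlap, a share of the 30 near the 6.28% of all tested genes. Without WT replicate 3 the medians were 0.07 for the nuclear-encoded list and 0.08 for the ribosomal list. The mitochondrial share of counts differed between the genotypes without overlap, and its part in the nuclear-encoded and ribosomal lists was not tested.

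Genes of microglial state were not called. Of 24 homeostatic genes 15 were above 0 and 9 below, with a median of 0.10 (from 0.06, without Tbk1+/- replicate 3, to 0.20, without Tbk1+/- replicate 2, over 17 alternatives). Fcrls, an Fc receptor-like protein of microglia, had 810.1, 167 and 948 CPM in the Tbk1+/- libraries, against 289, 333 and 283 CPM in the WT libraries, so library 2 was below all WT libraries and the others far above. Of 25 disease-associated microglia genes 19 were below 0, with a median of -0.17 (from -0.37, without both single-sex libraries, to -0.07, without Tbk1+/- replicate 1, over 17 alternatives) and 0 called. Their mean log2 difference from WT was -0.42, 0.12 and -0.49 in Tbk1+/- libraries 1, 2 and 3, against 0.12, 0.13 and -0.25 in WT libraries 1, 2 and 3. Gpnmb, a glycoprotein of lipid-laden phagocytes, had 5757, 13283 and 3993 CPM in the Tbk1+/- libraries, against 15915, 15152 and 8778 CPM in the WT libraries. Axl, a receptor for dying cells, was lower in each Tbk1+/- library with 34.1, 49.8 and 27.9 CPM in the Tbk1+/- libraries, against 73.9, 73.6 and 52.6 CPM in the WT libraries (log2 fold change -0.84, SE 0.20, adjusted p = 0.15). Of 19 lineage transcription factors 0 were called and 0 differed without overlap. Spi1, the myeloid factor PU.1, had 412, 259 and 357 CPM in the Tbk1+/- libraries, against 422, 398 and 417 CPM in the WT libraries.

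Antigen presentation genes were below 0 for 15 of 20, with a median of -0.22 (from -0.41, without both single-sex libraries, to -0.09, without Tbk1+/- replicate 1, over 17 alternatives), and 3, H2-M3, Nlrc5 and Tap1, were lower without overlap, against 6.28% of all tested genes. Nlrc5, the transactivator of class I genes, had 5.74, 4.57 and 4.71 CPM in the Tbk1+/- libraries, against 8.10, 16.3 and 8.64 CPM in the WT libraries (log2 fold change -1.14, SE 0.27, adjusted p = 0.15). Tap1, one chain of the peptide transporter, had 21.5, 34.2 and 28.5 CPM in the Tbk1+/- libraries, against 42.7, 40.2 and 36.1 CPM in the WT libraries (log2 fold change -0.50, SE 0.16, adjusted p = 0.326). Library 2 was among the low values of Nlrc5 and the highest Tbk1+/- value of Tap1. Of 26 lysosomal genes 15 were below 0, 4 of them at an unadjusted p under 0.05 (5.32% of all tested genes), and Mcoln1, a calcium channel of lysosomes, had 65.2, 58.9 and 61.3 CPM in the Tbk1+/- libraries, against 86.04, 85.3 and 74.8 CPM in the WT libraries, lower without overlap (adjusted p = 0.338). Autophagy genes, whose receptors TBK1 phosphorylates, were above 0 for 21 of 27 with a median of 0.10 (from 0.04, without WT replicate 3, to 0.16, without WT replicate 1, over 17 alternatives), and 4 were higher without overlap, against 6.28% of all tested genes. Wipi2, which recruits the lipidation machinery, had 65.2, 60.7 and 70.8 CPM in the Tbk1+/- libraries, against 57.3, 52.3 and 48.4 CPM in the WT libraries (adjusted p = 0.477), and 0 of the list were called. Fcer1g, the signalling chain of Fc receptors, had 1293, 1082 and 1318 CPM in the Tbk1+/- libraries, against 1045, 1029 and 934 CPM in the WT libraries, higher without overlap (adjusted p = 0.372).

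**Figure D4:**
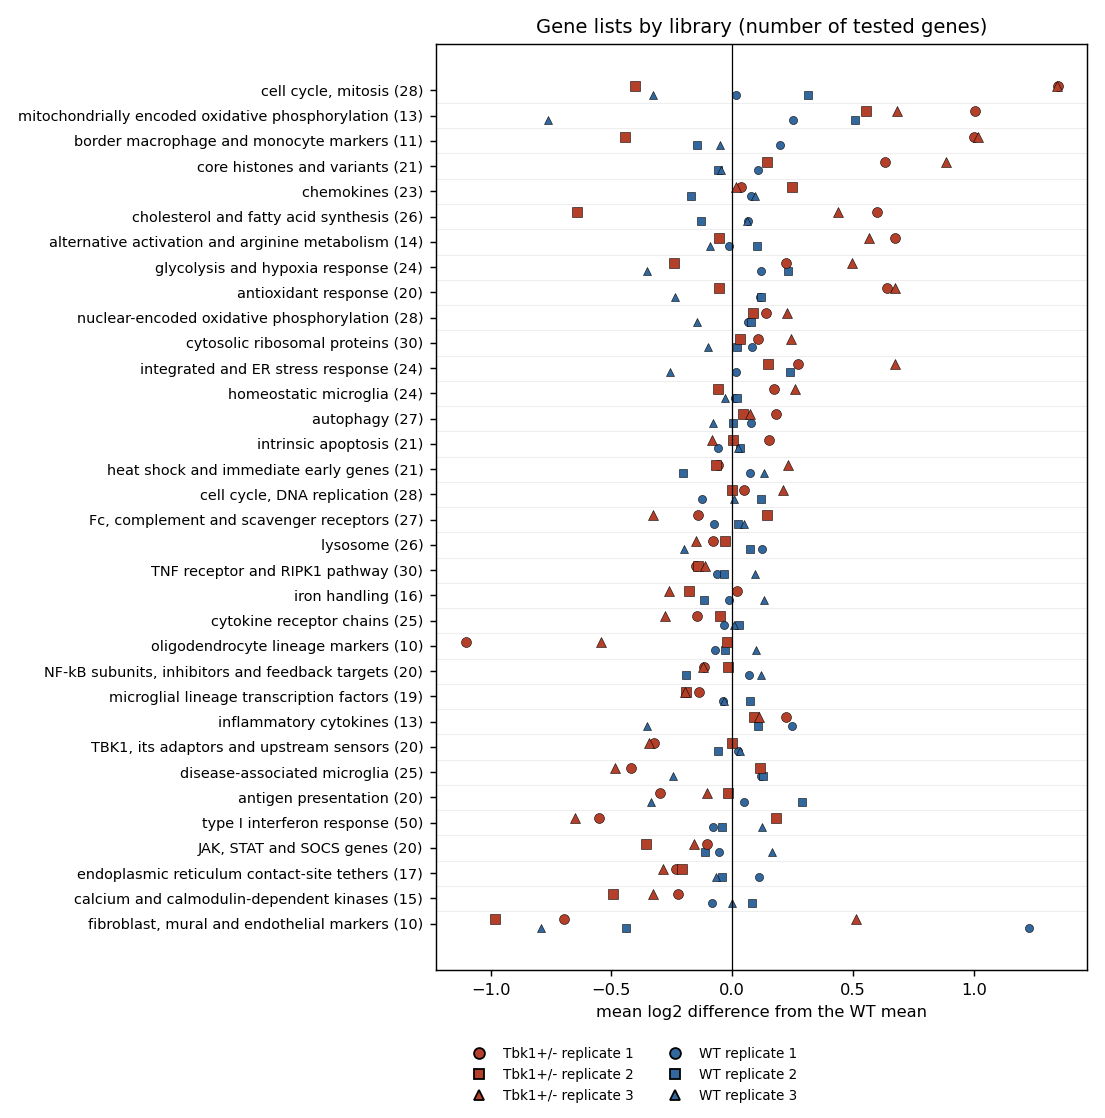
Mean log2 difference from the WT mean for each gene list of at least 10 tested genes (number in brackets), with one red symbol for each Tbk1+/- library and one blue symbol for each WT library, lists ordered by their median log2 fold change. For mitosis, border macrophage markers and cholesterol synthesis, Tbk1+/- library 2 (square) lay left of the WT libraries and libraries 1 and 3 to the right, and for the interferon response the reverse held.

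Against the other single heterozygote, Tak1ΔM/+, 178 genes (1.32%) were called in Tbk1+/-, 93 higher (0.692%) and 85 lower (0.632%). Camk1, with 184, 149 and 134 CPM in Tbk1+/-, against 289, 311 and 296 CPM in Tak1ΔM/+ libraries, and Esyt1, with 85.8, 77.9 and 77.5 CPM in Tbk1+/-, against 250.6, 224 and 176 CPM in Tak1ΔM/+ libraries, fell in this comparison too (log2 fold changes -0.94 and -1.43, adjusted p = 0.00169 for both). Steap3 also fell (-0.73, adjusted p = 0.0427) and Myom1 rose (1.31, adjusted p = 0.0204). Hist1h1c, with 350.1, 372 and 420.1 CPM in Tbk1+/-, against 332, 223 and 235 CPM in Tak1ΔM/+ libraries and no overlap, Cxcl14 and Il7r were not called (adjusted p = 0.0586, 0.0543 and 0.474). H1f0 fell, with 56.6, 37.97 and 42.1 CPM in Tbk1+/-, against 141, 100.5 and 73.97 CPM in Tak1ΔM/+ libraries (log2 fold change -1.21, adjusted p = 0.014). Among the genes of smallest p, Pls3 rose by a log2 fold change of 1.78, Ckap2 by 2.66, Cd86 by 1.59, the chromatin protein Hmgb1 by 0.87 and the clathrin adaptor Picalm by 0.80. Trim47 (-1.32), Ssbp4 (-1.32) and Rabl6 (-0.90) fell, and the groups did not overlap for these 8, as for 17.9% of all tested genes. The Tbk1+/- libraries are the same as in the comparison with WT, so both comparisons share them. Genes chosen against WT are therefore favoured to differ in the same direction here. Genes of the Y chromosome had 61, 0 and 0 counts in Tak1ΔM/+ libraries, against 1292, 3624 and 1896 in Tbk1+/- libraries. The mitochondrial share was 0.453% to 1.505% in Tak1ΔM/+ and 1.82% to 2.20% in Tbk1+/- libraries. Genotype, sex-linked RNA and mitochondrial share cannot be told apart in this comparison.

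In the double heterozygote against Tbk1+/-, 1974 genes (14.7%) were called, 866 higher (6.44%) and 1108 lower (8.24%). Tbk1 had 55.1, 56.4 and 66.002 CPM in double heterozygotes, against 50.5, 65.6 and 57.1 CPM in Tbk1+/- libraries, and the groups overlapped (log2 fold change 0.04, SE 0.25). Of the 50 interferon response genes 34 rose and 0 fell, with a median of 1.43, and Isg15 had 26.1, 25.4 and 25.8 CPM in double heterozygotes, against 1.88, 2.63 and 3.12 CPM in Tbk1+/- libraries (log2 fold change 3.34, adjusted p = 2.69e-06). Of the 28 mitosis genes 27 fell, with a median of -3.35. 20 of 30 ribosomal protein genes and 10 of 13 mitochondrially encoded genes fell, and 9 of 20 antigen presentation genes rose. With the mitochondrial share as a covariate the count of called genes was 140, and that share was 0.367% to 0.512% in double heterozygotes and 1.82% to 2.20% in Tbk1+/- libraries. Genotype and mitochondrial share cannot be told apart in this comparison.

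The 7 genes called against WT took different courses in the double heterozygote. They were chosen for their difference between these same Tbk1+/- libraries and WT. The choice favours a turn back towards WT here, and the adjusted p-values do not account for it. Hist1h1c had 442, 427 and 435 CPM in double heterozygotes, against 350.1, 372 and 420.1 CPM in Tbk1+/- libraries, without overlap, as for 33.6% of all tested genes, and was not called (log2 fold change 0.19, SE 0.14, adjusted p = 0.389). Il7r fell further, with 21.2, 26.3 and 26.3 CPM in double heterozygotes, against 46.6, 56.5 and 39.2 CPM in Tbk1+/- libraries (log2 fold change -0.95, adjusted p = 0.00267). Camk1 rose, with 246, 271 and 278 CPM in double heterozygotes, against 184, 149 and 134 CPM in Tbk1+/- libraries (log2 fold change 0.77, adjusted p = 0.000637), and its 3 values there were near the WT values of 277, 250.6 and 273 CPM. Steap3 and Esyt1 rose too (0.81 and 0.65, adjusted p = 0.00346 and 0.0162), and Cxcl14 fell (-0.71, adjusted p = 0.0218). Myom1, with 20.5, 26.6 and 23.2 CPM in double heterozygotes, against 51.2, 21.7 and 31.2 CPM in Tbk1+/- libraries, was not called (adjusted p = 0.12). The interaction of both alleles, a test added after the data were seen, was called for 235 genes (1.75%), and Steap3 was the only one of the 7 among them, though the 7 were chosen by one side of this contrast. Gpr34, a receptor of microglia, was among the genes of smallest p, with 31.7, 25.5 and 19.4 CPM in double heterozygotes, against 257, 169.8 and 134 CPM in Tbk1+/- libraries (log2 fold change -2.87, adjusted p = 1.64e-05).

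How many genes were called between Tbk1+/- and WT depended on which libraries were used. Leaving out Tbk1+/- replicate 2 gave 334, and leaving out replicate 1 or 3 gave 3 or 1. Leaving out WT replicate 1 or 2 gave 1 and leaving out WT replicate 3 gave 8. All 7 genes were among the 334, and among the 98 of DESeq2. The call of Hist1h1c was kept in all 6 fits that left out one library, that of Camk1 in 3 (without Tbk1+/- replicate 1 or 2 or WT replicate 3), those of Il7r, Myom1 and Esyt1 in 2 (without Tbk1+/- replicate 2 or WT replicate 3), and those of Steap3 and Cxcl14 in 1 (without Tbk1+/- replicate 2). The direction of the 7 did not change in any of the 17 alternatives, with log2 fold changes of 1.08 to 1.22 for Hist1h1c, 1.18 to 1.90 for Myom1, 1.01 to 1.37 for Cxcl14, -0.92 to -0.69 for Camk1, -1.34 to -0.89 for Il7r, -1.15 to -0.82 for Steap3 and -1.07 to -0.83 for Esyt1. The 7 were chosen from these same libraries and did not overlap between the genotypes. Leaving out a library could therefore hardly turn a direction, and nothing is read from the unchanged directions.

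**Figure D5:**
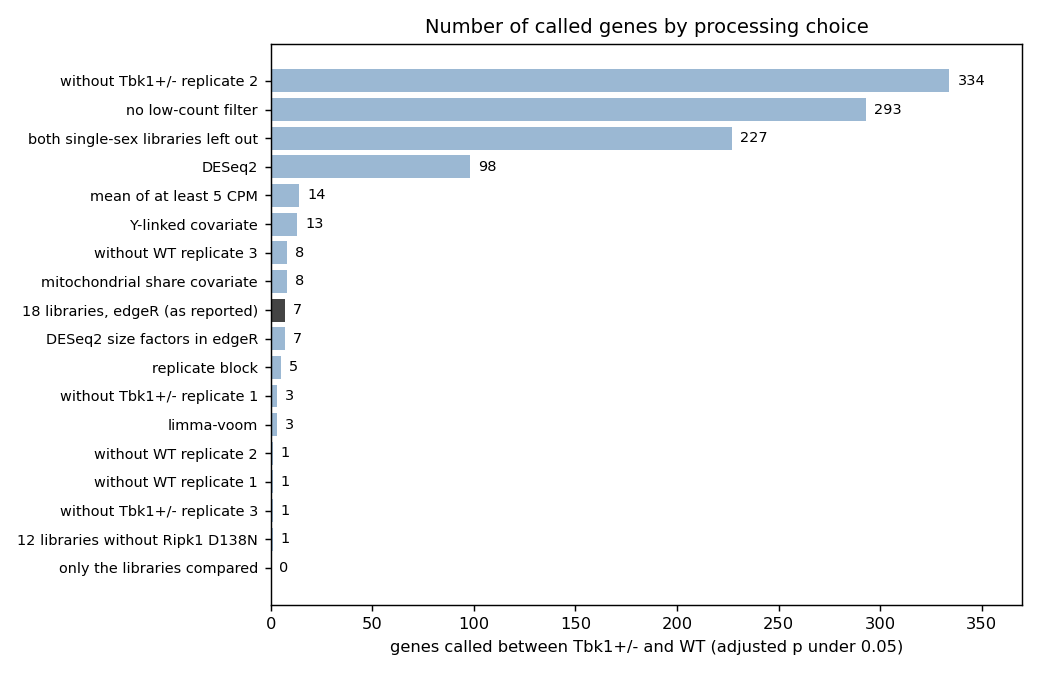
Number of genes called between Tbk1+/- and WT (adjusted p under 0.05) under each processing choice, one bar a choice, with the fit on all 18 libraries in dark grey. The count was 7 in that fit and between 0 (only the 6 libraries compared) and 334 (without Tbk1+/- replicate 2) in the others.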

How the data were processed

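Messenger RNA was sequenced from primary microglia of 6 mouse genotypes, with 3 libraries per genotype. Per the labels' protocols, libraries were made with Smart-seq2 from 1 ng of total RNA, with 12 cycles of PCR, and read as 50-base pairs. The authors deposited 1 table of raw counts per gene for 18 libraries. Per the submitters' processing notes, STAR, featureCounts and mm10 were used. Per the labels' protocols, RSEM was used instead, but the deposited counts are whole numbers. Versions, annotation and strand setting are not given in the sources used here. Of 50686 gene identifiers, 50376 had a symbol in GENCODE M21, and 0 columns belonged to other series.

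Genes were filtered with filterByExpr, scaled with TMM and tested with edgeR 4.0.16 (R 4.3.3) by the quasi-likelihood F test on all 18 libraries with 1 term per genotype. Adjusted p-values are Benjamini-Hochberg over 13447 genes, and 0.05 was the threshold. The interaction of both alleles came from the same fit. Standard errors come from the coefficient and its F value. Alternatives were DESeq2 1.42.0, limma-voom (limma 3.58.1), DESeq2 size factors, other filters, covariates, fewer libraries and each library left out. Scripts were tested on simulated counts.

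Named genes were Tbk1, Map3k7, Ripk1, the called genes, the 12 genes in each direction with the smallest p (mean of at least 5 CPM, no overlap), up to 6 genes per list by smallest p, all tested members of short lists, cell type markers, and the 5 genes in each direction of the other comparisons. Overlapping neighbours were added to show shared reads. The genes and 40 lists were chosen with earlier results of these data known. Shared 50-base stretches were counted in GENCODE transcripts. PCR reads are not independent molecules. Some genes are not reported here.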

Additional observations from a re-analysis of the deposited data

Results flagged for a closer look

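The effect of the Tbk1 allele was compared between cells with and without the Tak1ΔM allele, by the interaction term of the edgeR quasi-likelihood fit. This test was added after the data were seen, and 235 of 13447 genes (1.75%) passed it. Among the genes named for the comparison with WT, 7 passed. These genes were chosen for their small p in Tbk1+/- against WT, which enters the interaction with its sign turned, so the choice favours an interaction of opposite sign, and nothing is read from the count or from the signs. Each difference given here is the log2 effect of the Tbk1 allele in the double heterozygote over Tak1ΔM/+ minus that in Tbk1+/- over WT.

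Steap3 had a log2 effect of 0.08 with the Tak1ΔM allele and -0.95 without it, a difference of 1.03 (SE 0.23, adjusted p = 0.0327). It was the only one of these 7 that was also called in Tbk1+/- against WT. Dock10 had effects of 0.19 and -1.13, a difference of 1.32 (SE 0.29, adjusted p = 0.0304). Myo1g had effects of 0.20 and -0.62, a difference of 0.82 (SE 0.18, adjusted p = 0.0304). In these 3 genes the effect was negative without the Tak1ΔM allele and slightly positive with it.

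Pls3 had effects of -0.78 and 1.14, a difference of -1.93 (SE 0.34, adjusted p = 0.0116). Cd86 had effects of -0.24 and 1.28, a difference of -1.52 (SE 0.36, adjusted p = 0.0423). Usmg5 had effects of -0.21 and 0.65, a difference of -0.86 (SE 0.22, adjusted p = 0.049998). Ctla2b had effects of -0.79 and 1.32, a difference of -2.11 (SE 0.40, adjusted p = 0.0152), and 69.01% of its 50-base stretches also occur in other genes. In these 4 genes the level was higher with the Tbk1 allele alone, and for Pls3, Cd86 and Ctla2b Tbk1+/- libraries 1 and 3 were far above library 2. The mitochondrial share was 0.367% to 0.512% in the double heterozygote, 0.453% to 1.505% in Tak1ΔM/+, 1.82% to 2.20% in Tbk1+/- and 0.671% to 1.62% in WT libraries. Genes of the Y chromosome had 61, 0 and 0 counts in Tak1ΔM/+ libraries, against 1597, 798 and 1368 in double heterozygotes. The parts of mitochondrial share and of sex in these differences were not tested.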

How the results depend on the processing

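Between Tbk1+/- and WT the 7 calls became 293 with no low-count filter, 14 with a mean of at least 5 CPM, 13 with the Y-linked covariate, 98 with DESeq2, 3 with limma-voom, 1 in the 12 libraries without Ripk1 D138N and 0 in only the 6 libraries compared, where 875 genes had an unadjusted p under 0.05. They became 227 without both libraries that held RNA of one sex, a choice made after seeing the data, and 1 to 334 when one library was left out. Against Tak1ΔM/+ the 178 calls became 925 with no filter, 371 with at least 5 CPM, 80 with the mitochondrial share as a covariate, 276 with the Y-linked covariate, 3 in only the libraries compared, 768 with DESeq2 and 11 to 780 with one library left out. They were 42, 780 and 18 without Tbk1+/- replicate 1, 2 or 3, and 11 and 18 without Tak1ΔM/+ replicate 1 or 2. For the double heterozygote against Tbk1+/- the 1974 calls became 140 with the mitochondrial share and 1071 to 2213 with one library left out. The log2 fold change of Tbk1 was -1.058 with no filter, -1.05 with DESeq2 and -1.149 to -0.861 with one library left out. Map3k7 (-0.02) turned to 0.062 with the mitochondrial share, 0.097 with the Y-linked covariate, 0.384 without both single-sex libraries and 0.020 with limma-voom, and ran from -0.183 to 0.319 with one library left out, 0.048 without Tbk1+/- replicate 2. Ripk1 (-0.15) turned to 0.200 with the mitochondrial share, 0.113 with the Y-linked covariate and 0.164 without the single-sex libraries, and ran from -0.291 to 0.023. The cause of these changes was not tested. With a replicate block the counts were 5, 143 and 1949, and Tbk1 had -1.026. Libraries with the same number did not deviate together (correlations -0.0215, -5e-04 and -0.0464 for replicates 1, 2 and 3), and none correlated best with its own number, so the samples were not treated as paired. Among values of single genes other than Tbk1, 72 passed the test newly, 45 lost it and 10 changed direction. Among list medians, 81 moved by at least the SD of the 3 Tbk1+/- library means. The other 930 values were single genes that kept direction and call, lists that moved less than that SD, and the median of all tested genes. The sign of a list was not part of this rule. The intrinsic apoptosis median, for example, went from 0.032 to -0.049 without Tbk1+/- replicate 1 and is among the 930. Depth limits genes of a few CPM most, and 3 libraries per genotype limit all.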

Other observations

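Hist1h1c and Tbk1 were also read in the genotypes with Ripk1 D138N alleles, which enter no comparison here. Hist1h1c had 153, 188 and 162 CPM in Tbk1+/-;Ripk1 D138N/D138N libraries, and 171, 169 and 187 CPM in libraries labelled with the Tbk1, Tak1ΔM and a single Ripk1 D138N allele. Tbk1 had 130, 54.9 and 131 CPM in the first of these genotypes and 123, 107 and 115 CPM in the second. In 5 of these 6 libraries Tbk1 was above every Tbk1+/- library, although their labels give a Tbk1+/- genotype, and in all 6 Hist1h1c was below every Tbk1+/- library. Whether these libraries carry the labelled alleles was not tested.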
